A study of Homo sapiens with 9 samples.

Results

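The aminoacyl-tRNA synthetases, the enzymes that join each amino acid to its tRNA, were followed at the RNA level in Caco-2 cells, an established line from a human colon adenocarcinoma. The 35 genes were chosen by name, 19 for cytosolic and 16 for mitochondrial enzymes, out of 27668 genes in the count table, and 33 of them had enough reads to be tested. The aspartyl enzymes were not analysed here. RNA came from 9 libraries in 3 groups of 3. They were cells given 10 µM lovastatin together with 10 µM SGA360, cells given 10 µM lovastatin together with 10 µM SGA315, and cells given 10 µM lovastatin alone, each for 48 h and in medium with lipid-depleted serum. Lovastatin, which all 9 libraries share, blocks HMG-CoA reductase, the enzyme that limits cholesterol synthesis. SGA360 and SGA315 are named in the series as selective ligands of AHR, the aryl hydrocarbon receptor, a ligand-activated transcription factor. Nothing in the labels ties the replicates of a group to separate cultures, and every p-value below is therefore set against a spread among libraries that could be technical.

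Human cells run separate translation systems in the cytosol and in the mitochondrion. Most amino acids have a cytosolic enzyme, by convention numbered 1, and a mitochondrial enzyme, numbered 2, and both are encoded in the nucleus. GARS1 and KARS1 encode both forms of the glycyl and lysyl enzymes. Several cytosolic synthetases sit with scaffold proteins in the multisynthetase complex, while others act as free enzymes. When tRNAs stay uncharged, the kinase GCN2 phosphorylates the initiation factor eIF2, and the transcription factor ATF4 is then made, which is known to raise many cytosolic synthetase genes through elements of the form TGATGNAA in their promoters.

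The libraries held 12334041 to 16870035 counts each, with 1 table entry per gene. Of 12 markers of intestinal epithelium, 10 passed the filter on low counts. CDX1 and KRT20, both made by mature colon epithelium, did not. With SGA360, 1 of the 10 was higher and 7 lower than with lovastatin alone, and with SGA315, 3 were higher and 7 lower. The keratin KRT8 had log2 fold changes of -0.40 with SGA360 and -1.22 with SGA315, the transcription factor HNF4A -0.77 with SGA360 and -0.06 with SGA315, and the alkaline phosphatase ALPI 0.36 with SGA360 and 1.58 with SGA315. The part of these marker changes in the results on the synthetases was not tested. Of 10 markers of leukocytes, endothelium and fibroblasts, 3 passed: PDGFRB at 8.07, 6.55 and 8.78 CPM (counts scaled to a common library size, averaged over the libraries with SGA360, SGA315 and lovastatin alone), and PECAM1 and VWF at 1.58 CPM or less in each of these means. Ribosomal RNA also differed from lovastatin alone, in the mitochondrial share with both ligands and in the nuclear share with SGA315. The nuclear share with SGA360 overlapped lovastatin alone. Nuclear ribosomal RNA made up 0.43% to 0.66% of counts with SGA360 and 0.235% to 0.317% with SGA315, against 0.521% to 0.725% with lovastatin alone. Mitochondrial ribosomal RNA made up 1.222% to 1.315% with SGA360 and 1.14% to 1.293% with SGA315, against 0.951% to 1.001% with lovastatin alone. The part of these shares in the results on the synthetases was not tested. In RNA of whole cultures, fewer cells of a kind and less RNA per cell cannot be told apart.

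Both valyl enzymes were listed at or near 0. VARS1 had 0 counts and VARS2 had 1 count over the 9 libraries. Both lie on chromosome 6, and so did a stretch of other genes listed near 0. Of the 20 coding genes nearest to VARS1, 18 had 10 counts or fewer in all, and of the 20 nearest to VARS2, 17 did. These neighbours include CLIC1 and LSM2 at 0 counts and FLOT1 at 8 counts, genes that most cells use. The values of VARS1 and VARS2 are therefore not read as a lack of expression, and both stay out of all counts of changes.

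Divided by transcript length (the table entry's transcript as matched in GENCODE 29), the cytosolic genes were the more abundant set. Their median level was 81.2, 84.0 and 68.8 CPM per kilobase with SGA360, SGA315 and lovastatin alone (18 genes). The mitochondrial median was 14.0 with SGA360, 15.5 with SGA315 and 13.6 CPM per kilobase with lovastatin alone (13 genes with a known length). AARS1, the cytosolic alanyl enzyme, was the highest of all in each group, at 243.5 ± 1.89 with SGA360, 233.5 ± 0.689 with SGA315 and 210.0 ± 2.59 CPM per kilobase with lovastatin alone (SD, n = 3). IARS2, the mitochondrial isoleucyl enzyme, was the highest of its set, at 62.4 ± 0.319 with SGA360, 65.8 ± 1.77 with SGA315 and 80.75 ± 0.682 CPM per kilobase with lovastatin alone. Its cytosolic counterpart IARS1 had 60.51 ± 1.25 CPM per kilobase with SGA360 and 63.68 ± 0.217 with SGA315, close to IARS2, and 45.23 ± 0.279 with lovastatin alone, well below IARS2.

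With either ligand, most synthetase genes changed, in both directions and by small amounts. With SGA360, 13 of the 33 genes were higher than with lovastatin alone, 12 were lower and 8 did not pass the test (edgeR's quasi-likelihood test, adjusted p under 0.05 over all 14654 genes tested). Called genes made up 75.8% of the synthetases, against 62.8% of all genes tested, with 31.4% of all genes higher and 31.4% lower. With SGA315, 13 were higher, 11 lower and 9 not called, so that 72.7% were called, against 69.3% of all genes (36.1% higher and 33.2% lower). The share of called genes was somewhat above that of the whole table with SGA360 and near it with SGA315, and the sizes of change were smaller. The synthetases and the whole table were not matched for expression level, whose part in these shares and sizes was not tested. The median absolute log2 fold change of the synthetases was 0.16 with SGA360 and 0.24 with SGA315, while over all genes it was 0.25 with SGA360 and 0.31 with SGA315. A change of at least 1.5-fold was reached by 0 of 33 genes with SGA360 and by 1, LARS2, with SGA315, against 15.6% of all genes with SGA360 and 22.6% with SGA315. In a test against a 1.5-fold change (edgeR's glmTreat), 0 of 33 were called with either ligand, against 5.73% of all genes with SGA360 and 10.7% with SGA315. Without adjustment that test took 0 genes with SGA360 and 1 with SGA315 at the same threshold, LARS2, whose adjusted p was 0.0902. Both comparisons use the same 3 lovastatin libraries, so their directions are not independent.

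**Figure D1:**
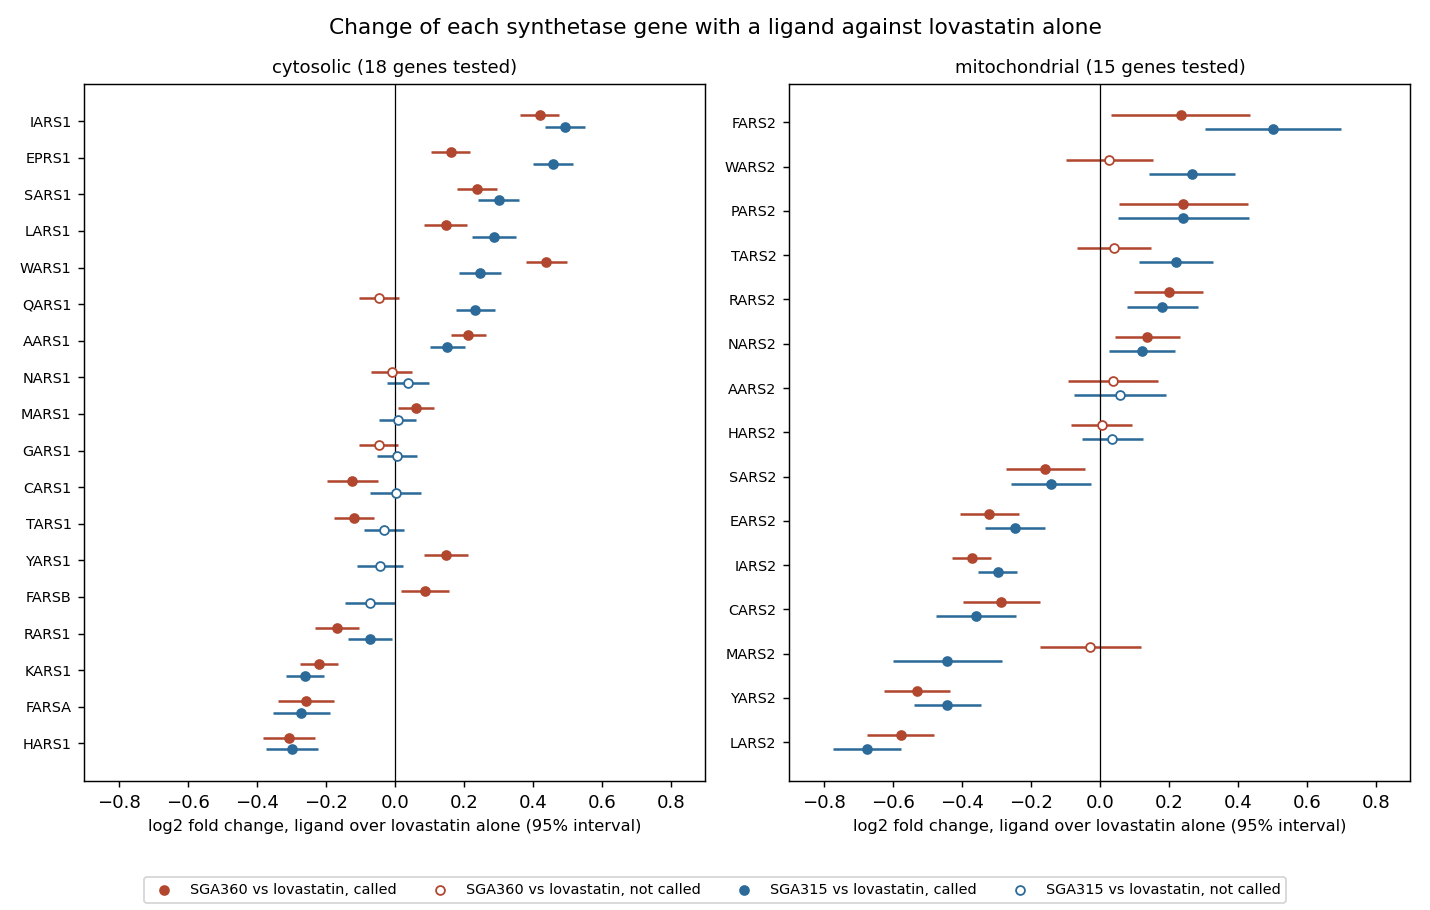
Log2 fold change of each tested synthetase gene with SGA360 (upper point of each pair) and SGA315 (lower point) over lovastatin alone, with 95% intervals from the edgeR fit over 3 libraries a group; filled points were called at an adjusted p under 0.05. The cytosolic genes run between -0.31 (HARS1, SGA360) and 0.49 (IARS1, SGA315), and the mitochondrial genes between -0.67 (LARS2, SGA315) and 0.50 (FARS2, SGA315).

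Of the 18 cytosolic genes tested, 9 rose and 6 fell with SGA360, and 7 rose and 4 fell with SGA315. Their median log2 fold change was 0.03 with SGA360 and 0.01 with SGA315, beside 0.02 with SGA360 and 0.04 with SGA315 over all genes. The scaling to a common library size matters at this size. With library totals alone in place of TMM factors, which are computed after trimming the genes that differ most, the median of all genes moved to 0.14 with SGA360 and 0.16 with SGA315. The cytosolic split then became 12 higher and 3 lower with SGA360, and 13 higher and 3 lower with SGA315. Changes below are relative to the TMM scale.

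Among the 7 enzymes of the multisynthetase complex, 4 rose (EPRS1, IARS1, LARS1, MARS1), 2 fell (RARS1, KARS1) and QARS1 was not called with SGA360, and 4 rose (EPRS1, IARS1, LARS1, QARS1), 2 fell (RARS1, KARS1) and MARS1 was not called with SGA315. IARS1, the cytosolic isoleucyl enzyme, had 278, 288 and 279 CPM with SGA360 and 296, 296 and 298 CPM with SGA315, against 210.0, 212 and 209.6 CPM with lovastatin alone. Every ligand library lay above every lovastatin library, and IARS1 rose by 0.42 ± 0.03 with SGA360 and 0.49 ± 0.03 with SGA315 (log2, SE, adjusted p = 3.92e-21 and 1.08e-24), the highest of the cytosolic set with SGA315. EPRS1, the fused enzyme for glutamate and proline, had 406, 395 and 415 CPM with SGA360 and 489, 483 and 522 CPM with SGA315, against 356, 358 and 373 CPM with lovastatin alone. The 3 groups of libraries formed 3 separate steps, with log2 fold changes of 0.16 ± 0.03 (adjusted p = 1.44e-06) with SGA360 and 0.46 ± 0.03 (adjusted p = 4.72e-23) with SGA315. QARS1, the glutaminyl enzyme, had 226, 230.4 and 235 CPM with SGA360 and 280.3, 278 and 280.1 CPM with SGA315, against 232, 239 and 242 CPM with lovastatin alone. The SGA315 libraries of QARS1 stood apart from lovastatin alone, by 0.23 ± 0.03 (adjusted p = 6.01e-11), while with SGA360 the log2 fold change was -0.05 (95% interval -0.10 to 0.01, adjusted p = 0.165). That missed call is not firm: QARS1 passed the test as lower without SGA360 replicate 3 (adjusted p = 0.0442) or lovastatin replicate 1 (adjusted p = 0.032), and as higher with library totals alone.

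The remaining enzymes of the complex are given by their fold changes. LARS1, the leucyl enzyme, rose by 0.15 with SGA360 and 0.29 with SGA315 (adjusted p = 4.96e-05 and 1.88e-12). KARS1, the lysyl enzyme, fell by 0.22 with SGA360 and by 0.26 with SGA315 (log2). It shares 176 exon bases with TERF2IP on the opposite strand, which rose by 0.49 with SGA360 and 0.61 with SGA315. RARS1, the arginyl enzyme, fell by 0.17 with SGA360 and by 0.07 with SGA315. Under library totals alone the call with SGA360 was lost, and the value with SGA315 changed sign. The call with SGA315 was also lost without SGA315 replicate 2 (adjusted p = 0.109) or lovastatin replicate 3 (adjusted p = 0.188). MARS1, the methionyl enzyme, had a log2 fold change of 0.06 with SGA360 (adjusted p = 0.0387), a call lost on leaving out any 1 of the 6 libraries (adjusted p 0.0894 to 0.322), and 0.01 with SGA315, which was not called. MARS1 shares 355 exon bases with DDIT3, a stress response gene on the opposite strand that rose by 0.91 with SGA360 and 1.06 with SGA315, and 519 with ARHGAP9, at 1.68 CPM or less in each group mean. Since strand use in counting is not given in the sources used here, reads of such pairs may not have been separated.

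Of the 11 cytosolic enzymes outside the complex, WARS1, SARS1 and AARS1 rose with both ligands, and HARS1 and FARSA fell with both. WARS1, the tryptophanyl enzyme, had 257, 261 and 263 CPM with SGA360 and 231, 228 and 225 CPM with SGA315, against 188, 188 and 199.9 CPM with lovastatin alone. The 3 groups did not overlap, and the log2 fold changes were 0.44 ± 0.03 with SGA360 (adjusted p = 3.96e-21) and 0.25 ± 0.03 with SGA315 (adjusted p = 7.26e-11). WARS1 shares 287 exon bases with WDR25, which rose by 0.53 with SGA360 and 0.55 with SGA315, at 8.57 CPM or less in each group mean. WARS1 is known as a target of interferon gamma in many cell types. IRF1, another gene that interferon gamma is known to raise, had log2 fold changes of 0.17 with SGA360 and 0.20 with SGA315, both called. SARS1, the seryl enzyme, had 234, 239.6 and 241 CPM with SGA360 and 249.5, 244 and 253 CPM with SGA315, against 203, 200.4 and 203 CPM with lovastatin alone. Both ligand groups of SARS1 stood wholly above lovastatin alone, by 0.24 ± 0.03 with SGA360 and 0.30 ± 0.03 with SGA315 (adjusted p = 8.91e-11 and 1.81e-14). AARS1 rose by 0.21 with SGA360 and 0.15 with SGA315 (adjusted p = 4.97e-11 and 3.53e-07).

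HARS1, the cytosolic histidyl enzyme, went the other way, with 86.9, 85.3 and 85.5 CPM with SGA360 and 89.96, 85.7 and 83.6 CPM with SGA315, against 104, 109 and 106 CPM with lovastatin alone. All 6 ligand libraries lay below the 3 lovastatin libraries, with log2 fold changes of -0.31 ± 0.04 with SGA360 and -0.30 ± 0.04 with SGA315 (adjusted p = 7.88e-11 and 2.5e-10). FARSA and FARSB encode the alpha and beta chains of the cytosolic phenylalanyl enzyme, which are known to assemble in equal numbers. FARSA fell by 0.26 with SGA360 and 0.27 with SGA315, while FARSB had log2 fold changes of 0.09 with SGA360 (called, adjusted p = 0.0241) and -0.07 with SGA315 (not called, adjusted p = 0.0709). FARSA shares 25 exon bases with the antisense gene FARSA-AS1, which fell by 0.36 with SGA360 and 0.66 with SGA315. The FARSB call with SGA360 was lost without SGA360 replicate 1 or 2 or without lovastatin replicate 1 or 3 (adjusted p 0.0726 to 0.258), and with SGA315 FARSB passed as lower without SGA315 replicate 3 or lovastatin replicate 3 (adjusted p = 0.0178 and 0.0206). YARS1, the tyrosyl enzyme, had 159, 160.4 and 152 CPM with SGA360 and 139, 138 and 137 CPM with SGA315, against 139, 143 and 144 CPM with lovastatin alone. The SGA360 libraries of YARS1 stood apart from lovastatin alone, by 0.15 ± 0.03 (adjusted p = 5.84e-05). With SGA315 the log2 fold change of YARS1 was -0.04 (95% interval -0.11 to 0.02), and YARS1 shares 396 exon bases with S100PBP, which had log2 fold changes of 0.10 with SGA360 (not called) and 0.32 with SGA315 (called). CARS1 and TARS1, for cysteine and threonine, each fell by 0.12 with SGA360, and with SGA315 CARS1 had 0.00 and TARS1 -0.03, neither called. Under library totals alone both calls with SGA360 were lost, and without SGA315 replicate 3 TARS1 was called lower with SGA315 (adjusted p = 0.0298). GARS1 and NARS1, for glycine and asparagine, were called with neither ligand, with -0.05 for GARS1 and -0.01 for NARS1 with SGA360, and 0.01 for GARS1 and 0.04 for NARS1 with SGA315. GARS1 passed as lower with SGA360 without SGA360 replicate 1 (adjusted p = 0.0182) or lovastatin replicate 1 (adjusted p = 0.0233).

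**Figure D2:**
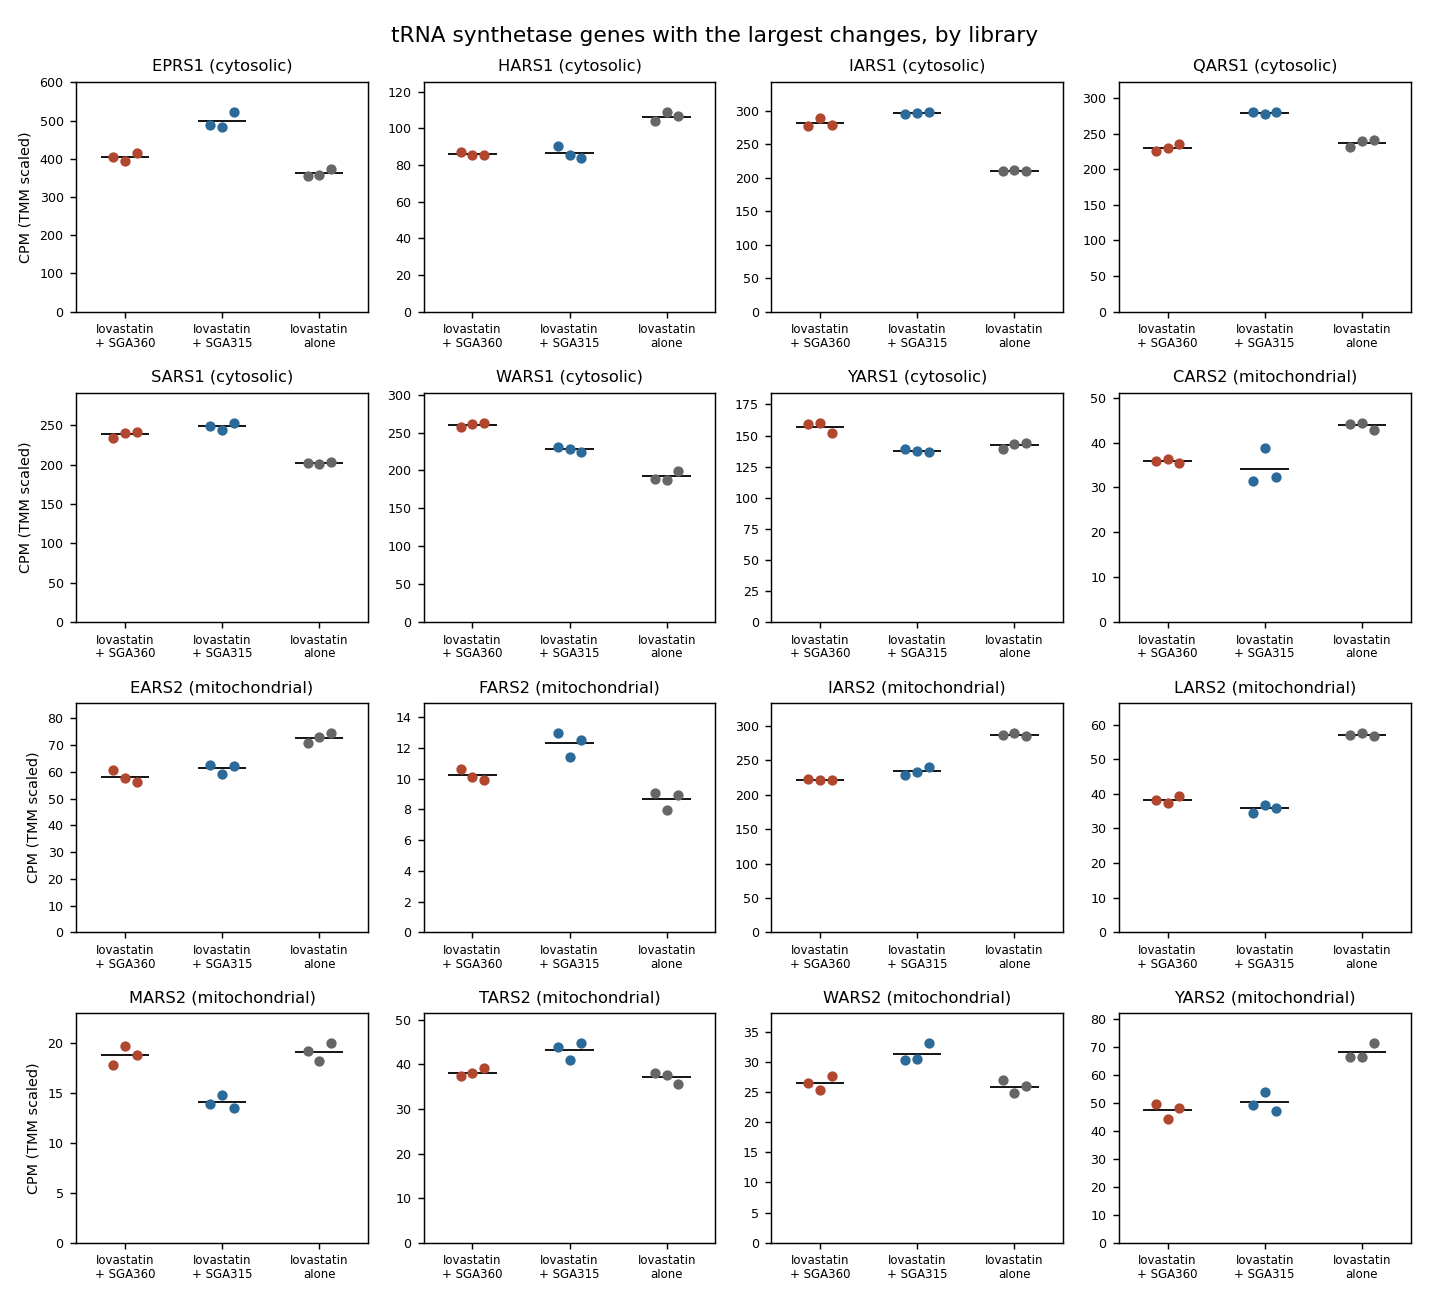
CPM of the 16 synthetase genes with the largest called changes in each library (points) with the group mean (line), on axes that start at 0; groups run left to right as lovastatin with SGA360, lovastatin with SGA315 and lovastatin alone. EPRS1 and WARS1 form 3 separate steps, QARS1 stands apart with SGA315, and LARS2, YARS2 and IARS2 are highest with lovastatin alone.

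The promoters of the synthetase genes were read for the TGATGNAA element. RefSeq windows of 300 bases (250 before to 50 after the annotated start, assembly GRCh38.p14) were at hand for 30 of the 35 genes. The 8 letters, searched on both strands, were found in 7 of 16 cytosolic windows (43.8%) and 1 of 14 mitochondrial windows (7.14%), against 4.46% of all genes. A narrower form, TTGCATCA, which is TGATGCAA on the other strand and so a subset of the first motif, was in 6 of 16 cytosolic (37.5%) and 0 mitochondrial windows, against 1.08% of all genes. The 30 bases around each match are shown because the holders did not share a direction with the ligands; they read 5′ to 3′ along the gene, with the match in capitals.

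AARS1, chr16:70289675-70289704, minus strand: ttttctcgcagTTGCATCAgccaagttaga
CARS1, chr11:3057407-3057436, minus strand: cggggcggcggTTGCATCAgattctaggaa
GARS1, chr7:30594834-30594863, plus strand: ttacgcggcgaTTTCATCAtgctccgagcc
IARS1, chr9:92293692-92293721, minus strand: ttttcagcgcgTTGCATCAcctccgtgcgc
MARS1, chr12:57488053-57488082, plus strand: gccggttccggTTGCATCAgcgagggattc
NARS1, chr18:57621804-57621833, minus strand: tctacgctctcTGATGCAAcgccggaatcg
TARS1, chr5:33440956-33440985, plus strand: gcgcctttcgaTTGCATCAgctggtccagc
YARS2, chr12:32756076-32756105, minus strand: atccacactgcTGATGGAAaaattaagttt

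Of the genes with these matches, AARS1 and IARS1 rose with both ligands and YARS2, the mitochondrial tyrosyl enzyme, fell with both. CARS1 and TARS1 fell with SGA360, MARS1 rose slightly with SGA360, and GARS1 and NARS1 were not called with either. EPRS1, LARS1, SARS1 and WARS1 also rose with both ligands and were not among the genes with a match. Genes without a window could not be among them. A match of letters is a description of the window only.

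HARS1 and HARS2, the histidyl enzymes of the cytosol and the mitochondrion, start back to back on chromosome 5. The 84 bases between their annotated starts (chr5:140691371-140691454, GRCh38.p14, plus strand, HARS1 to the left and HARS2 to the right) are shown because the pair shares them, while HARS1 was called and HARS2 was not; the difference between the pair is given with the ratios below.

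HARS1 to HARS2: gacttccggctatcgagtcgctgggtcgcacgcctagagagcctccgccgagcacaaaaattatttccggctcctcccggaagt

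HARS1 fell with both ligands, as above, whereas HARS2 had log2 fold changes of 0.01 with SGA360 (95% interval -0.08 to 0.09) and 0.04 with SGA315 (-0.05 to 0.12), neither called. HARS2 had 64.2, 60.9 and 65.0 CPM with SGA360 and 60.9, 67.9 and 65.3 CPM with SGA315, against 62.8, 63.2 and 63.1 CPM with lovastatin alone. The 2 genes share 437 exon bases in GENCODE 29, so their counts may not be fully separate. HARS2 also shares 152 exon bases with ZMAT2 on the same strand, which fell by 0.22 with SGA360 and 0.21 with SGA315. HARS1 shares 221 with WDR55 on the opposite strand. WDR55 had log2 fold changes of -0.17 with SGA360 (called) and -0.09 with SGA315 (not called).

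Of the 15 mitochondrial genes tested, 4 rose and 6 fell with SGA360, and 6 rose and 7 fell with SGA315. The median log2 fold change was 0.01 with SGA360 and 0.04 with SGA315, beside 0.02 with SGA360 and 0.04 with SGA315 over all genes, while the means were -0.09 with SGA360 and -0.07 with SGA315. With library totals alone the splits were 8 higher and 5 lower with SGA360, and 8 higher and 6 lower with SGA315. Of the 4 rises with SGA360, RARS2 kept its call in each of 13 alternative fits of the same test of any change, and FARS2, NARS2 and PARS2 did not. The number called higher was 1 without SGA360 replicate 1 or lovastatin replicate 2 and in DESeq2, and 2 without SGA360 replicate 2 or 3 or lovastatin replicate 3.

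LARS2, the mitochondrial leucyl enzyme, had 38.3, 37.4 and 39.3 CPM with SGA360 and 34.6, 36.8 and 36.0 CPM with SGA315, against 57.0, 57.6 and 56.7 CPM with lovastatin alone. It was the largest change of any synthetase in both comparisons, 1.49-fold lower with SGA360 and 1.60-fold lower with SGA315 (log2 -0.58 ± 0.05 and -0.67 ± 0.05, adjusted p = 6.33e-17 and 1.74e-19), with no overlap of libraries. YARS2 had 49.7, 44.3 and 48.2 CPM with SGA360 and 49.2, 54.1 and 47.3 CPM with SGA315, against 66.7, 66.6 and 71.4 CPM with lovastatin alone. All 6 ligand libraries of YARS2 lay below lovastatin alone, by log2 -0.53 ± 0.05 with SGA360 and -0.44 ± 0.05 with SGA315 (adjusted p = 2.14e-15 and 1.52e-12). IARS2 had 223, 222 and 221 CPM with SGA360 and 229, 233 and 241 CPM with SGA315, against 287, 290.0 and 285 CPM with lovastatin alone. IARS2 fell by 0.37 ± 0.03 with SGA360 and 0.30 ± 0.03 with SGA315 on the log2 scale (adjusted p = 1.19e-18 and 1.21e-14), again with no overlap, so the isoleucyl pair moved in opposite directions.

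EARS2, the mitochondrial glutamyl enzyme, had 60.7, 57.7 and 56.2 CPM with SGA360 and 62.6, 59.4 and 62.2 CPM with SGA315, against 70.8, 73.1 and 74.6 CPM with lovastatin alone. EARS2 charges glutamate both to its own tRNA and to the mitochondrial glutamine tRNA, which an amidotransferase then converts. Its libraries did not overlap lovastatin alone, and EARS2 fell by 0.32 ± 0.04 with SGA360 and 0.25 ± 0.04 with SGA315 on the log2 scale (adjusted p = 1.41e-09 and 8.88e-07). EARS2 shares 370 exon bases with UBFD1, which had 139.8 CPM with SGA360 and 170.0 CPM with SGA315, against 148.7 CPM with lovastatin alone. CARS2, the mitochondrial cysteinyl enzyme, had 35.8, 36.3 and 35.5 CPM with SGA360 and 31.4, 38.8 and 32.3 CPM with SGA315, against 44.2, 44.5 and 42.8 CPM with lovastatin alone. All ligand libraries of CARS2 were below lovastatin alone although SGA315 replicate 2 was well above the other 2 of its group, and CARS2 fell by 0.29 ± 0.06 with SGA360 and 0.36 ± 0.06 with SGA315 (adjusted p = 9.8e-06 and 1.22e-07). CARS2 shares 326 exon bases with ING1, which rose by 0.18 with each ligand. SARS2, the mitochondrial seryl enzyme, fell by 0.16 with SGA360 and 0.14 with SGA315. Both calls were lost under library totals alone. They were also lost without lovastatin replicate 2 (adjusted p = 0.129 for SGA360 and 0.184 for SGA315). The call with SGA315 was lost without SGA315 replicate 3 as well (adjusted p = 0.226). SARS2 shares 1492 exon bases, 46.2% of its own, with the coding gene AC011455.2 on the same strand, so its value is uncertain. Its neighbour MRPS12 on the opposite strand, a mitochondrial ribosomal protein gene that shares 349 exon bases with it, fell by 0.46 with SGA360 and 0.58 with SGA315.

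MARS2, the mitochondrial methionyl enzyme, changed with SGA315, with 17.8, 19.7 and 18.7 CPM with SGA360 and 13.9, 14.8 and 13.5 CPM with SGA315, against 19.1, 18.2 and 19.9 CPM with lovastatin alone. The SGA315 libraries lay below all the others (log2 -0.44 ± 0.08, adjusted p = 1.56e-06), and the value with SGA360 was -0.03 (95% interval -0.17 to 0.12). FARS2, the single-chain mitochondrial phenylalanyl enzyme, had 10.6, 10.1 and 9.92 CPM with SGA360 and 12.97, 11.4 and 12.5 CPM with SGA315, against 9.09, 7.96 and 8.95 CPM with lovastatin alone. The 3 groups of FARS2 libraries did not overlap, and the log2 fold changes were 0.23 ± 0.10 with SGA360 (adjusted p = 0.038) and 0.50 ± 0.10 with SGA315 (adjusted p = 8.56e-06). The call with SGA360 was lost on leaving out any 1 of the 6 libraries (adjusted p 0.053 to 0.162) and in DESeq2.

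WARS2, the mitochondrial tryptophanyl enzyme, had 26.5, 25.4 and 27.6 CPM with SGA360 and 30.3, 30.4 and 33.1 CPM with SGA315, against 27.0, 24.8 and 26.0 CPM with lovastatin alone. TARS2, the mitochondrial threonyl enzyme, had 37.4, 38.0 and 39.2 CPM with SGA360 and 43.8, 41.0 and 44.7 CPM with SGA315, against 38.0, 37.7 and 35.6 CPM with lovastatin alone. For both genes the SGA315 libraries stood above lovastatin alone (log2 0.27 ± 0.06 for WARS2 and 0.22 ± 0.05 for TARS2, adjusted p = 0.000138 and 0.000215), and the SGA360 libraries overlapped it, at 0.03 for WARS2 and 0.04 for TARS2. The other mitochondrial genes called, RARS2, NARS2 and PARS2, had log2 fold changes of 0.12 to 0.24 with either ligand, and AARS2 was not called, at 0.04 with SGA360 and 0.06 with SGA315. NARS2 lost its call without SGA360 replicate 1 or 2 or lovastatin replicate 2 in the SGA360 comparison (adjusted p 0.0529 to 0.0889), and without SGA315 replicate 1 or 2 or lovastatin replicate 2 in the SGA315 comparison (0.0679 to 0.289). PARS2 lost its call without SGA360 replicate 1 or 3 or lovastatin replicate 2 or 3 (0.0507 to 0.12), and without SGA315 replicate 2 or 3 or lovastatin replicate 2 or 3 (0.0506 to 0.117).

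Set against each other, the libraries with SGA360 and with SGA315 differed in fewer synthetase genes. At the same dose and time, 5 of the 33 genes were higher with SGA360 than with SGA315, 11 were lower and 17 were not called, so that 48.5% were called, against 42.7% of all genes tested (21.8% higher and 20.9% lower). Of the cytosolic genes 4 were higher and 7 lower, and of the mitochondrial genes 1 was higher and 4 lower. Without SGA360 replicate 2 the mitochondrial genes lower numbered 2, and without SGA315 replicate 2 those higher numbered 2. The test against a 1.5-fold change called 0 of 33, with 0 at an unadjusted p under 0.05 as well, against 1.25% of all genes called. Libraries did not overlap for 25 genes with SGA360 against lovastatin alone, 22 with SGA315 against lovastatin alone and 19 between the ligands, against 66.4%, 70.4% and 49.2% of all genes.

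The largest difference was in MARS2, higher with SGA360 by 0.41 ± 0.08 (log2, adjusted p = 1.3e-05), from the values given above. EPRS1 was lower with SGA360 than with SGA315 by 0.30 ± 0.03 (log2 -0.30, adjusted p = 4.2e-14), and QARS1 by 0.28 ± 0.03 (log2 -0.28, adjusted p = 6.01e-13). Both belong to the multisynthetase complex, of which 0 of 7 enzymes were higher with SGA360 than with SGA315, 5 were lower (EPRS1, QARS1, LARS1, RARS1 and IARS1) and 2 were not called (MARS1 and KARS1). DESeq2 did not call RARS1 and IARS1, which leaves 3 of the 7 lower. LARS1 had a log2 difference of -0.14 and CARS1, outside the complex, of -0.13. WARS1 and YARS1 were higher with SGA360, each by 0.19 ± 0.03 (adjusted p = 9.63e-08 and 1.48e-06), and FARSB by 0.16. WARS2, TARS2 and FARS2 were lower with SGA360, at log2 -0.24 ± 0.06, -0.18 ± 0.05 and -0.27 ± 0.09 (adjusted p = 0.000953, 0.00364 and 0.0166). The tryptophanyl pair therefore differed between the ligands in opposite directions, WARS1 higher and WARS2 lower with SGA360.

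Some of these calls were lost when 1 library was left out, which also leaves fewer libraries to test. FARS2 lost its call without SGA360 replicate 2 (adjusted p = 0.056) or SGA315 replicate 1 (adjusted p = 0.0929), and also in DESeq2, which likewise ended the calls of IARS1, IARS2, RARS1 and TARS1. IARS1 (log2 -0.07) lost it without SGA360 replicate 1 or 3 or SGA315 replicate 1 (adjusted p 0.0551 to 0.127), and IARS2 (log2 -0.08) without any of the 3 SGA360 libraries or SGA315 replicate 3 (0.056 to 0.145). AARS1 (log2 0.06) lost it on leaving out any 1 of the 6 libraries (0.0617 to 0.153), RARS1 (log2 -0.09) without SGA360 replicate 2 or SGA315 replicate 1 or 3 (0.0513 to 0.0561), and TARS1 (log2 -0.09) without SGA360 replicate 2 or SGA315 replicate 3 (0.0746 and 0.15). Conversely GARS1, SARS1 and CARS2 gained a call without SGA315 replicate 2 (adjusted p = 0.0398, 0.0348 and 0.0184).

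A missed call does not show that the ligands act alike, and the intervals give what the data allow. For 4 of the genes that fell with both ligands, the difference of SGA360 from SGA315 was 0.10 for LARS2 (95% interval -0.01 to 0.20), -0.09 for YARS2 (-0.19 to 0.02), -0.01 for HARS1 (-0.09 to 0.07) and 0.07 for CARS2 (-0.05 to 0.19). The other differences not called were -0.07 for EARS2, -0.06 for SARS1, -0.05 for GARS1 and for NARS1, -0.03 for HARS2, -0.02 for AARS2 and for SARS2, 0.00 for PARS2, 0.01 for FARSA, 0.02 for NARS2 and for RARS2, 0.04 for KARS1 and 0.05 for MARS1. Of the 17 intervals, that of PARS2 was the widest, as the plot of the ligands against each other shows.

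**Figure D3:**
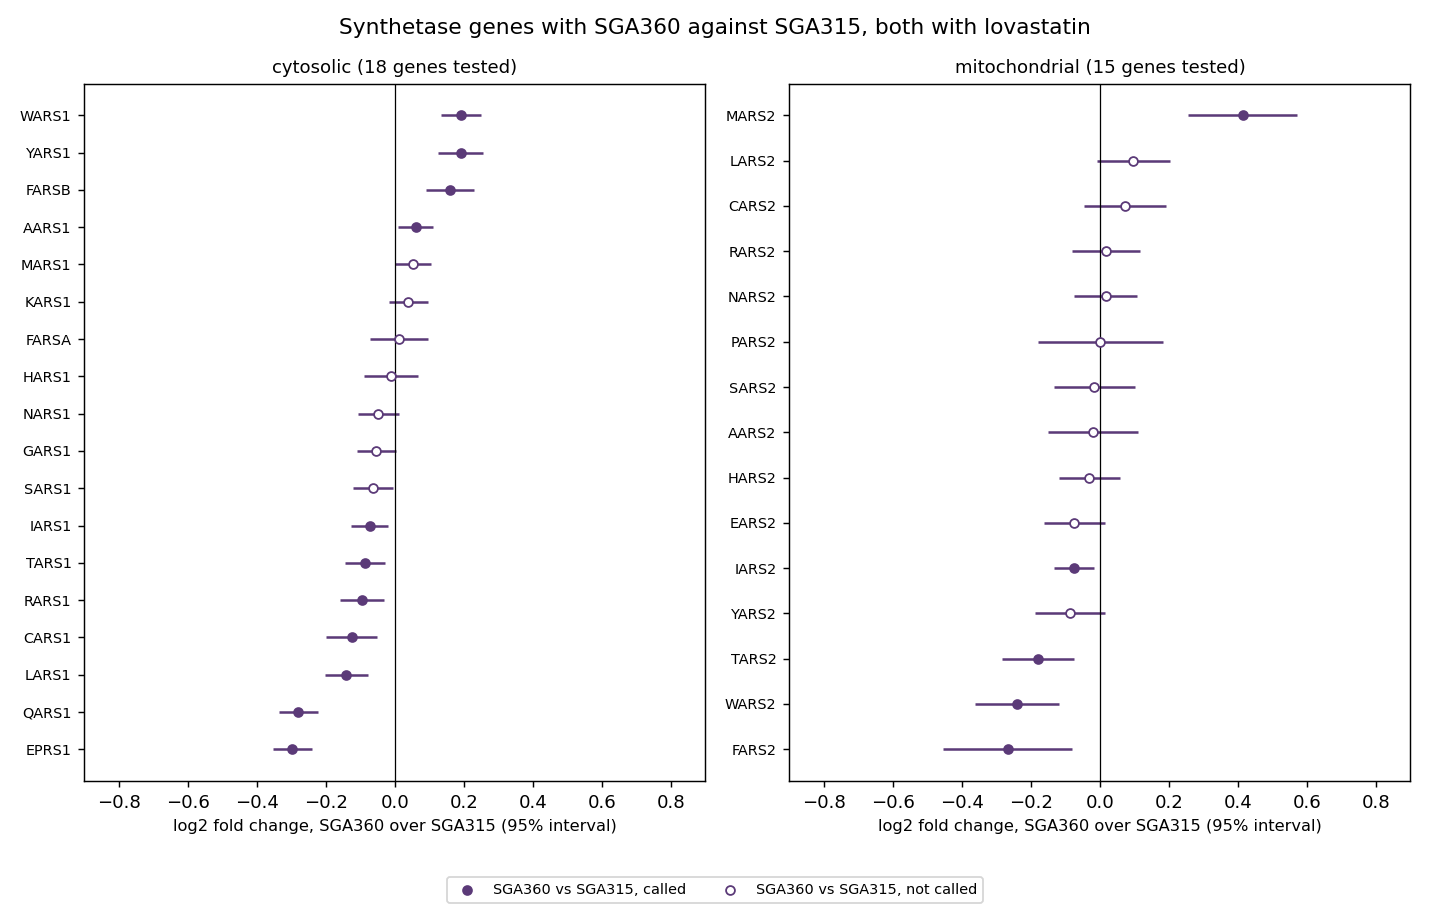
Log2 fold change of each tested synthetase gene with SGA360 over SGA315, both with lovastatin, with 95% intervals from the edgeR fit over 3 libraries a group; filled points were called. MARS2 at 0.41 is the highest and EPRS1 at -0.30 the lowest value, and 17 of the 33 genes are open points.

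In summed level, to which abundant genes add most, the cytosolic genes were higher and the mitochondrial genes lower with either ligand. The median log2 fold changes stayed near 0, at 0.03 and 0.01 for the cytosolic genes with SGA360 and SGA315. For the mitochondrial genes they were 0.01 and 0.04, so the sums do not describe the typical gene of a set. The 18 cytosolic genes together had 4805, 4782 and 4819 CPM with SGA360 and 4907, 4873 and 5015 CPM with SGA315, against 4521, 4580 and 4647 CPM with lovastatin alone. The 15 mitochondrial genes together had 743, 731 and 736 CPM with SGA360 and 748, 769 and 759 CPM with SGA315, against 852, 849 and 853 CPM with lovastatin alone. Neither sum overlapped between a ligand group and lovastatin alone. Without AARS1 the cytosolic sum was 3927 to 3977 CPM with SGA360 and 4058 to 4203 CPM with SGA315, against 3799 to 3908 CPM with lovastatin alone. Without IARS2 the mitochondrial sum was 509 to 520 CPM with SGA360 and 518 to 536 CPM with SGA315, against 559 to 568 CPM with lovastatin alone.

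The balance between the sets can also be taken within each library, where the scaling cancels. The ratio of summed counts, cytosolic to mitochondrial, was 6.47, 6.54 and 6.55 with SGA360 and 6.56, 6.34 and 6.61 with SGA315, against 5.31, 5.40 and 5.45 with lovastatin alone. The mean log2 fold change of the cytosolic genes exceeded that of the mitochondrial genes by 0.12 with SGA360 and 0.13 with SGA315, and differed from it by -0.01 between the ligands. Taken between the medians of the sets in place of the means, the gap was 0.02 with SGA360 and -0.03 with SGA315. Without AARS1 and IARS2 the gap between means was 0.09 with SGA360 and 0.11 with SGA315. With 3 libraries against 3, an exact permutation test cannot go below p = 0.1, and the genes were chosen with earlier results known, so no test of these sums is given.

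**Figure D4:**
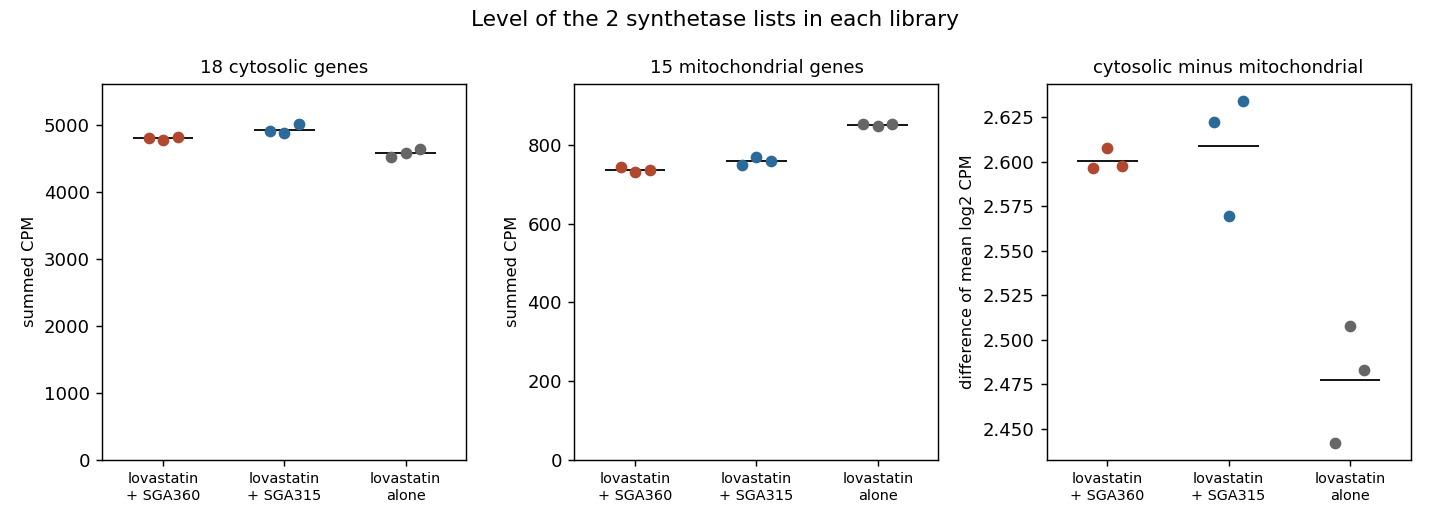
Summed CPM of the 18 cytosolic and the 15 mitochondrial synthetase genes in each library, and the difference of their mean log2 CPM (right, an axis that does not start at 0), with group means as lines; groups run left to right as lovastatin with SGA360, lovastatin with SGA315 and lovastatin alone. The mitochondrial sum is 731 to 743 and 748 to 769 CPM with the ligands, below the 849 to 853 CPM with lovastatin alone.

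Amino acid by amino acid, the ratio of the cytosolic to the mitochondrial gene moved up for some pairs and down for others. The 16 ratios (EPRS1 and FARS2 each enter 2 of them) did not overlap lovastatin alone and were higher in 7, lower in 6 and overlapping in 3 with SGA360, and higher in 8, lower in 5 and overlapping in 3 with SGA315. For single genes, the share of all genes without overlap was 66.4% with SGA360 and 70.4% with SGA315. The largest upward shifts were in leucine and isoleucine. In leucine, the log2 ratio of LARS1 to LARS2 was 2.52 ± 0.04 with SGA360 and 2.76 ± 0.07 with SGA315, against 1.79 ± 0.03 with lovastatin alone (SD, n = 3). The log2 ratio of IARS1 to IARS2 was 0.34 ± 0.03 with SGA360 and 0.34 ± 0.03 with SGA315, against -0.45 ± 0.0044 with lovastatin alone. In counts, then, IARS2 exceeded IARS1 with lovastatin alone and IARS1 exceeded IARS2 with either ligand. That order depends on transcript length, which is 4656 bases for IARS1 and 3560 for IARS2. Per kilobase, IARS2 stayed above IARS1 in each group mean, though narrowly with the ligands. The values were 62.4 against 60.51 CPM per kilobase with SGA360 and 65.8 against 63.68 with SGA315. The largest downward shift was in phenylalanine, where the log2 ratio of FARSA to FARS2 was 3.00 ± 0.01 with SGA360 and 2.72 ± 0.14 with SGA315, against 3.50 ± 0.19 with lovastatin alone. The histidine pair HARS1 to HARS2 shifted by -0.32 with SGA360 and -0.34 with SGA315, and the arginine pair RARS1 to RARS2 by -0.36 with SGA360 and -0.25 with SGA315. The tryptophan pair WARS1 to WARS2 was higher by 0.41 with SGA360 and overlapped with SGA315, with a difference of -0.02. No ratio could pass an exact permutation test, whose smallest p is 0.1 with 3 against 3.

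**Figure D5:**
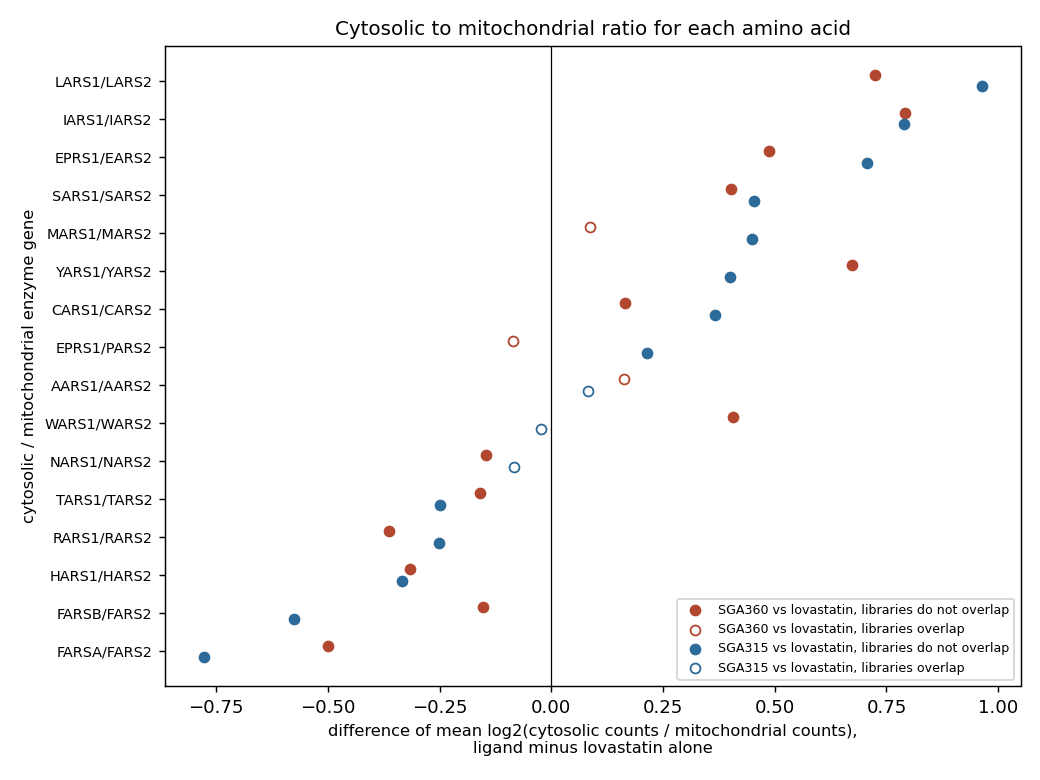
Difference, ligand minus lovastatin alone, of the mean log2 ratio of cytosolic to mitochondrial counts for each pair of enzymes for an amino acid (3 libraries a group); filled points mark pairs whose libraries do not overlap between the groups. The isoleucine pair is highest with SGA360 at 0.79, the leucine pair is highest with SGA315 at 0.96, and the FARSA to FARS2 pair lowest at -0.50 and -0.78.

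The partners of the synthetases were read from lists of genes around tRNA charging. Their counts stand beside a background of 62.8% called with SGA360, split into 31.4% up and 31.4% down, and of 69.3% with SGA315, split into 36.1% up and 33.2% down. The 3 scaffold genes of the multisynthetase complex were all called with both ligands: AIMP1 rose by 0.13 with SGA360 and 0.27 with SGA315, EEF1E1 fell by 0.23 with SGA360 and 0.21 with SGA315, and AIMP2 rose by 0.11 with SGA360 and fell by 0.20 with SGA315. AIMP2 was higher with SGA360 than with SGA315 by 0.30 (adjusted p = 4.11e-09). Of the 4 genes of the amidotransferase that makes mitochondrial glutaminyl-tRNA and of the formylation of methionyl-tRNA, 1 rose and 2 fell with SGA360, and 1 rose and 1 fell with SGA315. The amidotransferase subunit QRSL1 rose by 0.37 with SGA360 and 0.29 with SGA315, while its partner GATC fell by 0.20 with SGA360 and 0.28 with SGA315.

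Of 6 genes for proofreading, selenocysteine charging and tRNA export, 5 rose and 0 fell with SGA360, and 4 rose and 0 fell with SGA315. SEPSECS, which makes selenocysteine on its tRNA, rose by 0.97 with SGA360 and 1.21 with SGA315. XPOT, which exports tRNA from the nucleus, rose by 0.21 with SGA360 and 0.39 with SGA315, and DTD1, which removes D-amino acids from tRNA, by 0.52 with SGA360 and 0.17 with SGA315. The elongation factors of translation were read for each compartment. Of 6 cytosolic factor genes 3 rose and 0 fell with SGA360, and 5 rose and 1 fell with SGA315, with EEF2, the factor that moves the ribosome along, higher by 0.21 with SGA360 and 0.39 with SGA315. Of 4 mitochondrial factor genes 0 rose and 2 fell with SGA360, and 1 rose and 3 fell with SGA315. TUFM, the mitochondrial counterpart of the tRNA carrier EF-Tu, fell by 0.31 with SGA360 and 0.35 with SGA315, and TSFM, its exchange factor, by 0.32 with SGA360 and 0.30 with SGA315.

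Genes that sense or answer uncharged tRNA were also read. Of 4 sensing genes 2 rose and 2 fell with each ligand. IMPACT, an inhibitor of GCN2 activation, rose by 0.48 with SGA360 and 0.49 with SGA315, and EIF2AK4, which encodes GCN2, by 0.15 with SGA360 and 0.21 with SGA315. GCN1, the activator of GCN2, fell by 0.25 with SGA360 and 0.18 with SGA315. Of 20 genes of the amino acid response, 12 rose and 7 fell with SGA360, and 11 rose and 7 fell with SGA315. The background was 62.8% called with SGA360 and 69.3% with SGA315. TRIB3, a target of ATF4, rose by 0.72 with SGA360 and 0.44 with SGA315, and SLC3A2, the heavy chain of amino acid transporters, by 0.79 with SGA360 and 0.22 with SGA315. SLC7A5, the leucine transporter that pairs with SLC3A2, fell by 0.56 with SGA360 and 0.99 with SGA315, and SHMT2, of mitochondrial serine metabolism, rose by 0.42 with SGA360 and 0.53 with SGA315. ATF4 itself fell by 0.22 with SGA360 and 0.06 with SGA315, and its target ASNS rose by 0.30 with SGA360 and 0.34 with SGA315; both were picked after their values were seen.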

How the data were processed

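Poly(A) RNA libraries of Caco-2 cells were counted by the authors. The deposited values are raw counts, 1 whole number for each RefSeq transcript in each library, per the file headers. Per the submitters' processing notes, hg19 was the build, and TopHat2 2.0.13 and HTSeq 0.5.4p3 were among the tools, with no role stated. Strand use is not given in the sources used here.

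RefSeq (GRCh38.p14) named 64346 of the 65325 table entries and GENCODE 29 named 545. The other 434, with 0.255% of counts, were left out. Each gene was represented by its entry with the highest total, since entries of a gene repeat reads. Where genes had identical counts (29 sets) a single gene was kept and 52 were dropped, leaving 27668.

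The main test was the quasi-likelihood F test of edgeR 4.0.16 (R 4.3.3), scaled by TMM and filtered by filterByExpr with a minimum count of 10 and a minimum total of 15. All 9 libraries entered 1 fit with a coefficient per group. Benjamini-Hochberg adjustment covered all 14654 genes that passed the filter, and "called" means an adjusted p under 0.05. Levels are TMM-scaled CPM. A count of 0 allows up to 3 counts, or 0.178 to 0.243 CPM, which covers counting error only. The test was checked on simulated counts with 200 of 14654 genes changed, far fewer than were called in the data. It found 92% to 94% of the 2-fold changes and 65% to 77% of the smaller ones. False calls made up 4.22% of calls with SGA360, 4.79% with SGA315 and 6.63% for SGA360 against SGA315. Libraries of a group differed beyond sampling noise in every pair (chi-square per degree of freedom 1.36 to 2.37).

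Values in every library are given for the 16 called genes among the 8 largest absolute log2 fold changes of any comparison, and for HARS2. From each companion list up to 3 genes with the smallest p are named, with exceptions stated. 1 listed gene is not reported here. The members and lists were chosen with earlier results of these data known. Alternatives were RLE scaling, library totals only, DESeq2 1.42.0, no filter on low counts, the compared groups only, a replicate block, the lowest accession per gene, a test against a 1.5-fold change, leaving out GARS1 and KARS1, and leaving out each library. The difference of set means, and its form with medians or without AARS1 and IARS2, were added after the data were seen.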

Additional observations from a re-analysis of the deposited data

How the results depend on the processing

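Of 99 comparisons of a synthetase gene, 61 kept their call under every alternative that re-tests single genes for any change. The other 38 changed in at least 1. A change of sign was counted only where the main fit or the alternative called the gene. The test against a 1.5-fold change is not among these alternatives. Library totals alone reversed 6 values that were called on the TMM scale or on totals. With SGA360 they went to 0.0679 (GARS1), 0.105 (NARS1) and 0.0688 (QARS1). With SGA315 they went to 0.0485 (RARS1), 0.0892 (TARS1) and 0.0779 (YARS1). Of these, RARS1 was called as lower on the TMM scale and the others were not called. The same scaling gave 3 cytosolic genes lower and 8 mitochondrial genes higher with SGA360, 13 cytosolic genes higher with SGA315, and medians of 0.1403 (cytosolic) and 0.119 (mitochondrial) with SGA360 and 0.1283 and 0.1563 with SGA315. DESeq2 called 1 mitochondrial gene higher with SGA360, and 4 cytosolic and 2 mitochondrial genes lower with SGA360 than with SGA315. The cause of these shifts was not tested. The test against a 1.5-fold change called 0 genes of either set in any comparison and direction, which follows from its stricter null. Without GARS1 and KARS1 the cytosolic median with SGA360 was 0.0748.

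The gap between set means was 0.0211 with SGA360 and -0.028 with SGA315 when medians were used. With no filter on low counts it was 0.0065 with SGA315 and 0.1116 for SGA360 against SGA315, where VARS2 with its 1 count enters the mean. Leaving out each library in turn moved the cytosolic median between 0.0012 and 0.0262 with SGA360 and between -0.0219 and 0.0184 with SGA315, and the mitochondrial median between -0.039 and 0.0204 with SGA360, -0.0191 and 0.0657 with SGA315, and -0.0582 and 0.0044 between the ligands. It gave 1 to 3 mitochondrial genes higher with SGA360, and 1 to 2 higher and 2 to 4 lower with SGA360 than with SGA315. A set median whose range spans 0 thus took its sign from single libraries.

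Replicate numbers did not pair the libraries: same-numbered libraries correlated at -0.021 to 0.0442 in their deviations from the group means, 0 of 9 above 0.1. With the number as a replicate block, the calls over all genes went to 9338, 10270 and 6436 (SGA360, SGA315, and SGA360 against SGA315), beside 9208, 10159 and 6259 without it, and all 99 synthetase calls stayed as they were. Counts per gene limit the lowest members most: FARS2 and PARS2, near 10 CPM, had the widest intervals.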
